A study of Mus musculus with 9 samples.

Results

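Heavy-chain variable genes (Ighv) carry the segments that begin each antibody heavy chain, and 46 of them gave RNA in bone marrow stromal cell libraries from mice. They were selected on measured values, as all rows of the gene table whose symbol starts with Ighv and a digit and whose value was above 0 in at least 1 library. The table held 76 such rows among 30579 genes, so 30 rows were at 0 in every library. The FPKM values of all 9 libraries thus chose the members. Which genes were above 0, and where they were highest, is therefore given as a description. Of the 46 genes, 43 are annotated as functional segments and 3 as pseudogenes (Ighv1-33, Ighv1-68 and Ighv5-21). Of the 30 rows at 0, 11 are functional and 19 are pseudogenes. GENCODE M21 annotates 183 Ighv genes on GRCm38, and those without a row in the table were not analysed here.

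The libraries, 3 in each of 3 groups, were made from sorted long-bone marrow cells that the labels call mesenchymal stromal cells. The groups were aged Thbs1 knockout mice at 18 months, aged control mice at 18 months and young control mice at 3 months. Mice of all groups had been injected before death with a labelling antibody to VE-cadherin, a protein of endothelial cells. The labels give neither the strain, nor whether the knockout was in all cells, nor the gates of the sort, nor whether each library is from a mouse of its own. The p-values below therefore measure the spread between these libraries, which may be technical. Values are FPKM, fragments per kilobase of transcript scaled to library size. Being per length, they are set side by side between genes. No source used here says how reads matching several genes were counted, so such comparisons are approximate.

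The targeted gene did not separate the genotypes. Thbs1, which encodes thrombospondin-1, had 24.28, 44.55 and 37.05 FPKM in the libraries labelled aged Thbs1 knockout, against 35.56, 41.89 and 36.85 FPKM in aged controls, and 74.98, 73.11 and 58.03 FPKM in young controls. The groups of aged mice overlapped, so the first group is called by its label throughout. Low values lay on steps worth 17.7 to 27.5 M (mega) reads per library, and 3 reads on a variable gene of 351 bases came to 0.311 to 0.483 FPKM. Summed over 8 stromal marker genes, none of them at 0 in any library, libraries labelled knockout had 7867 to 9537 FPKM, aged controls 4250 to 6155 FPKM and young controls 9454 to 9641 FPKM. Replicate 2 of the libraries labelled knockout stood apart, with 13503 genes above 0, against 16557 to 18382 in the other 8 libraries.

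Each B cell builds its heavy chain by joining 1 variable, 1 diversity and 1 joining segment of the heavy-chain locus, and this exon is spliced to a constant gene such as Ighm. Descendants of that cell keep the same variable gene, so the share of each gene in the heavy-chain RNA reflects which B-lineage cells made it and how much each made. Plasma cells, the antibody-secreting end stage, live in the bone marrow for long periods and hold very large amounts of this RNA. Stromal cells do not rearrange the locus, but Cxcl12-making stromal cells and plasma cells lie next to each other in the marrow.

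All 76 rows lie on the minus strand of chromosome 12, with Ighv5-2 nearest the diversity segments among these rows and Ighv1-84 farthest from them. The variable exons of 5 genes are shown, of Ighv7-1, Ighv9-3, Ighv10-1 and Ighv11-2 because each led at least 1 aged library, and of Ighv1-64 because it was among the 3 genes called in the tests below. Ighv7-1 (chr12:113896414-113896713, minus strand) encodes the heavy chain of the classic phosphorylcholine-binding antibodies. Ighv11-2 (chr12:114048241-114048536, minus strand) is known from phosphatidylcholine-binding antibodies of innate-like B cells. Ighv9-3 (chr12:114140692-114140985, minus strand), Ighv10-1 (chr12:114479007-114479306, minus strand) and Ighv1-64 (chr12:115507545-115507838, minus strand) belong to 3 further families. Sequences are from the second exon of the GENCODE M21 transcript on GRCm38, written 5′ to 3′ along the gene, without its first 11 bases (the end of the leader) and up to a length of 300 bases. Capitals mark the bases that differ from the nearest other annotated Ighv gene, which is Ighv7-3 for Ighv7-1, Ighv9-2 for Ighv9-3, Ighv10-3 for Ighv10-1, Ighv11-1 for Ighv11-2 and Ighv1-72 for Ighv1-64.
Ighv7-1: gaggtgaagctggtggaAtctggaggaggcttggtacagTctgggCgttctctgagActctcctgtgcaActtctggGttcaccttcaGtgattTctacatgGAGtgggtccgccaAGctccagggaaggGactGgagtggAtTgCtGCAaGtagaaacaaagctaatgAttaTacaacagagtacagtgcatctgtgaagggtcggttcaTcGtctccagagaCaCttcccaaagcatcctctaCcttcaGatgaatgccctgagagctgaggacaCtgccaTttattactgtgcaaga
Ighv9-3: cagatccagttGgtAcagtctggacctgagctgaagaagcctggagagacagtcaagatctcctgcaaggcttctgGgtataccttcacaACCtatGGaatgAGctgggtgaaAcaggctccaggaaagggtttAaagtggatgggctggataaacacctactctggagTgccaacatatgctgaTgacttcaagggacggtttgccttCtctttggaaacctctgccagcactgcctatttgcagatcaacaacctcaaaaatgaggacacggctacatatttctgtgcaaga
Ighv10-1: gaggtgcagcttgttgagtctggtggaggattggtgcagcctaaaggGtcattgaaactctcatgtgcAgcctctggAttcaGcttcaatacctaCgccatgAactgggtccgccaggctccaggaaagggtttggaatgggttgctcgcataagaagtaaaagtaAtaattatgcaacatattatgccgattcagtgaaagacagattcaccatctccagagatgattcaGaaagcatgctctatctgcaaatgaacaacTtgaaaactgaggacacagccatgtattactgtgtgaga
Ighv11-2: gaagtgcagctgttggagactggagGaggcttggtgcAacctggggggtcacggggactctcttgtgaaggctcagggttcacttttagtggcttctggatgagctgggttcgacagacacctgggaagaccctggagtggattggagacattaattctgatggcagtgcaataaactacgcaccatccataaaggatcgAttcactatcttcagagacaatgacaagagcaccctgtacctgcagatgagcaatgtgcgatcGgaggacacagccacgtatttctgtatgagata
Ighv1-64: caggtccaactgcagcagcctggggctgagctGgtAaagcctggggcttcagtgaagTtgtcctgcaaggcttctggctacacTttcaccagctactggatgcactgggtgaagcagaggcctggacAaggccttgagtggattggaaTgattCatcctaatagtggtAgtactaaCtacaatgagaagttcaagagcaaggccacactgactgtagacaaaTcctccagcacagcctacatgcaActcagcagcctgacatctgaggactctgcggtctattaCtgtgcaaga
Over the whole exon, Ighv7-1 differed from its nearest copy at 35 bases, Ighv9-3 at 17, Ighv1-64 at 12, Ighv10-1 at 10 and Ighv11-2 at 4. The copies nearest to Ighv11-2 and Ighv1-64, which are Ighv11-1 and Ighv1-72, have no row in the table. Over the 46 genes, identity to the nearest annotated copy had a median of 95.2% and ranged from 75.8% to 100%, and for 23 of them that copy has no row. Ighv1-62-2 and Ighv1-71, named here after their values were seen, have identical variable exons, so reads within that exon cannot be told apart between them. The rest of their transcripts was not compared. They had 33.69 and 26.10 FPKM in aged control replicate 2, and 0.41 and 2.28 FPKM in young control replicate 3. Values of single members of a family are uncertain to this extent.

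Heavy-chain variable RNA was most abundant in aged controls. Summed over the members, it came to 471.71, 150.14 and 433.94 FPKM in the libraries labelled knockout, to 5256.34, 3366.26 and 67132.6 FPKM in aged controls, and to 1.70, 8.44 and 173.4 FPKM in young controls. The aged controls lay above all other libraries, while replicate 3 of the young controls overlapped the range of the libraries labelled knockout. Group means were 352 ± 176, 25252 ± 36282 and 61.2 ± 97.2 FPKM in the libraries labelled knockout, in aged controls and in young controls (SD, n = 3 each). Replicate 3 set much of the aged control mean, which was 4311 FPKM without it, and replicate 3 set the young control mean, which was 5.07 FPKM without it. As a share of all FPKM the sum was 0.150%, 0.026% and 0.127% in the libraries labelled knockout, 0.907%, 0.895% and 9.23% in aged controls, and 0.049% or less in young controls. In bulk RNA, fewer cells of a type and less RNA per cell cannot be told apart.

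The number of genes above 0 was also highest in aged controls. It was 4, 6 and 8 in the libraries labelled knockout, 28, 25 and 31 in aged controls, and 2, 4 and 6 in young controls. The range of the aged controls did not overlap that of either other group, and the other 2 groups overlapped each other. Of the 46 genes, 40 were highest in an aged control, 5 in a library labelled knockout and 1 in a young control. Of those 40, 18 peaked in replicate 3 and 11 each in replicates 1 and 2. Aged controls alone had 25 genes above 0, libraries labelled knockout alone had 2 (Ighv1-49 and Ighv1-67, at 0.13 and 0.11 FPKM), and young controls alone had 0.

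Sharing between libraries of a group was also widest in aged controls. No gene was above 0 in all 3 libraries labelled knockout, 14 genes were above 0 in all 3 aged controls, and Ighv7-1 was the 1 gene above 0 in all 3 young controls. Of the members, 13 were above 0 in 1 library and 33 in 2 or more. Values just inside the choice were those of Ighv1-56, Ighv1-63 and Ighv8-9, at 0.11 FPKM in aged control replicate 1, and Ighv1-67, at 0.11 FPKM in replicate 1 of the libraries labelled knockout. Each corresponds to about 1 read, and the 30 rows just outside are at 0.

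**Figure D1:**
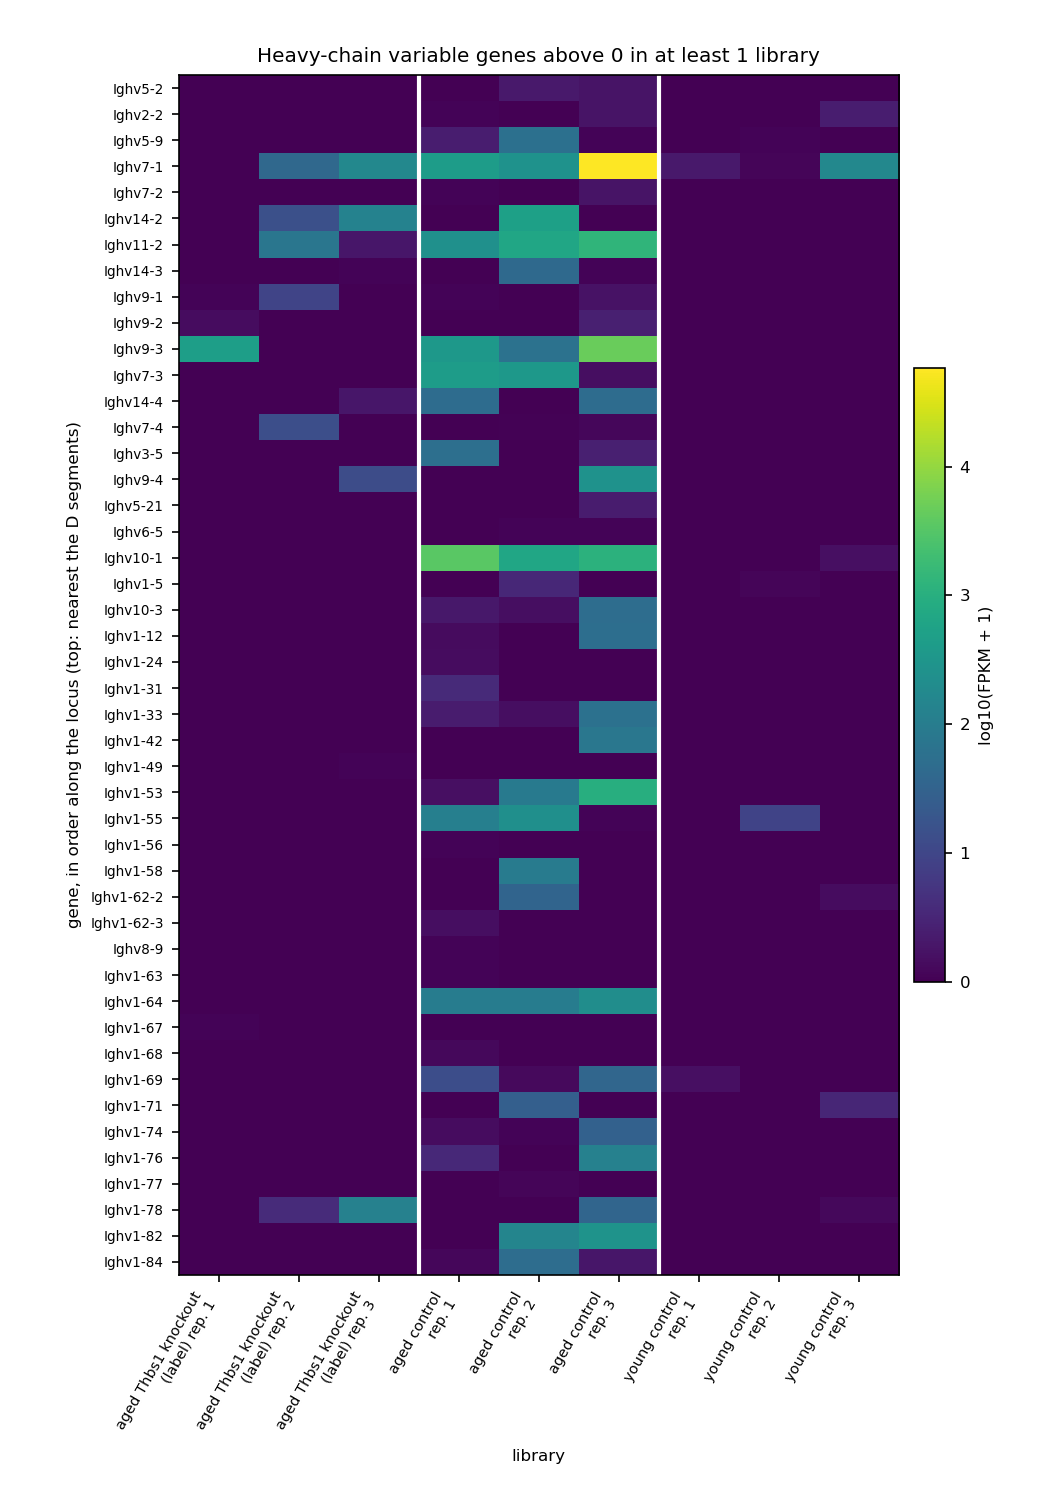
Level of each of the 46 heavy-chain variable genes (rows, in order along the locus, nearest the diversity segments at the top) in each of the 9 libraries (columns), as log10(FPKM + 1) by colour. The 3 aged control columns hold 28, 25 and 31 genes above 0, against 8 or fewer in every other library.

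The aged controls also had far more reads on the locus than the other libraries. Estimated reads on the members were 4338, 1126 and 3380 in the libraries labelled knockout, 49777, 35734 and 508273 in aged controls, and 12, 62 and 1230 in young controls. Drawn down to 500 reads per library, the expected number of genes was 1.62, 6.0 and 5.73 in the libraries labelled knockout, 10.8, 16.7 and 10.6 in aged controls, and 5.31 in young control replicate 3. Young control replicates 1 and 2 had too few reads for this. At equal reads the aged controls were thus still the 3 highest of the 7 libraries. With at least 1 FPKM required, the numbers were 1, 6 and 4 in the libraries labelled knockout, 15, 18 and 20 in aged controls, and 1, 1 and 3 in young controls.

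Usage was uneven within every library. The effective number of genes, the exponential of the Shannon entropy of the usage shares, says how many equally used genes would give the same spread. It was 1.01, 3.94 and 3.37 in the libraries labelled knockout, 3.62, 10.3 and 1.89 in aged controls, and 1.90, 1.29 and 1.18 in young controls. Group means were 2.78 ± 1.55, 5.27 ± 4.43 and 1.46 ± 0.386 in the libraries labelled knockout, in aged controls and in young controls (SD, n = 3 each). Unlike the number of genes, this measure overlapped between all 3 groups. Aged control replicate 2 stood highest, and the aged control mean was 2.76 without it. Aged control replicate 3, which had the most genes above 0, had a lower effective number than replicates 2 and 3 of the libraries labelled knockout.

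**Figure D2:**
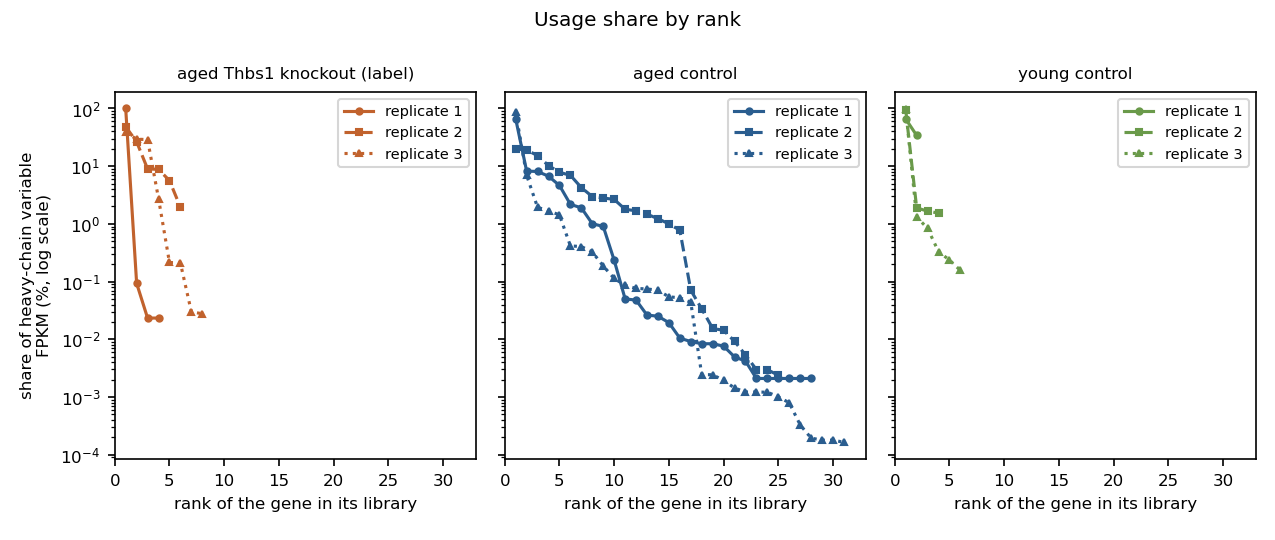
Usage share of each gene above 0 (percent of heavy-chain variable FPKM, log scale) against its rank within its library, 1 panel per group and 1 line per replicate. Aged control replicate 2 falls off slowest, with a leading share of 19.9%, while replicate 1 of the libraries labelled knockout drops from 99.9% at the first gene to 0.093% at the second.

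A different gene led in each library labelled knockout. In replicate 1, Ighv9-3 had 471.05 FPKM and 99.9% of the sum (95% Wilson interval of its share of reads 99.7% to 99.9%, counting error only). The next gene there was Ighv9-2 of the same family at 0.44 FPKM. In replicate 2, Ighv11-2 led with 72.46 FPKM and 48.3%, followed by Ighv7-1 at 39.65 FPKM and Ighv14-2 at 13.46 FPKM. In replicate 3, Ighv7-1 had 167.31 FPKM, Ighv14-2 had 127.33 FPKM and Ighv1-78 had 125.29 FPKM, and no gene passed 38.6%. Ighv9-3, which made up nearly all of replicate 1, was at 0 in replicates 2 and 3, and Ighv7-1 and Ighv14-2 were at 0 in replicate 1.

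The leading gene also changed from one aged control to the next. In replicate 1, Ighv10-1, of a small family known from antibodies to DNA, had 3465.22 FPKM and 65.9% of the sum, ahead of Ighv7-3 at 431.86 FPKM and Ighv7-1 at 424.81 FPKM. In replicate 2, Ighv11-2 led with 670.46 FPKM and 19.9%, with Ighv10-1 at 642.89 FPKM and Ighv14-2 at 512.22 FPKM close behind. In replicate 3, Ighv7-1 reached 57799.1 FPKM, which was 86.1% of the sum and the value ranked 3 among all 30579 genes of that library. Ighv9-3 followed there with 4659.01 FPKM and Ighv11-2 with 1295.19 FPKM. Young control replicates 1 and 2 had few reads behind their leading genes. Ighv7-1 had 8 of 12 reads in replicate 1 (95% Wilson interval 39.1% to 86.2%), and Ighv1-55 had 59 of 62 reads in replicate 2 (86.7% to 98.3%). In young control replicate 3, Ighv7-1 had 1195 of 1230 reads (96.1% to 97.9%).

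Ighv7-1 was the most widely seen gene, above 0 in 8 of 9 libraries. It had 0, 39.65 and 167.31 FPKM in the libraries labelled knockout, 424.81, 263.79 and 57799.1 FPKM in aged controls, and 1.12, 0.16 and 168.42 FPKM in young controls. All aged controls exceeded all other libraries, and replicate 3 of the young controls lay close to replicate 3 of the libraries labelled knockout. Ighv10-1 was at 0 in all 3 libraries labelled knockout, at 3465.22, 642.89 and 1134.82 FPKM in aged controls, and at 0, 0 and 0.57 FPKM in young controls. Ighv1-64 was at 99.52, 99.95 and 218.59 FPKM in aged controls and at 0 in the other 6 libraries. These last 2 genes were far above the value of 3 reads in every aged control and close to or below it elsewhere.

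Further genes had high values in some libraries of a group and low values or 0 in others. Ighv11-2 had 0, 72.46 and 0.91 FPKM in the libraries labelled knockout, 243.31, 670.46 and 1295.19 FPKM in aged controls, and 0 in all young controls. Ighv14-2 had 0, 13.46 and 127.33 FPKM in the libraries labelled knockout, 0, 512.22 and 0 FPKM in aged controls, and 0 in all young controls. Ighv1-78 had 0, 2.92 and 125.29 FPKM in the libraries labelled knockout, 0, 0 and 35.11 FPKM in aged controls, and 0, 0 and 0.27 FPKM in young controls. For Ighv14-2 and Ighv1-78 the groups of aged mice overlapped. Ighv1-53, among the 5 highest by mean, was at 0.55, 89.25 and 957.84 FPKM in aged controls and at 0 in the other 6 libraries.

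The level of the leading variable gene was set beside that of the leading heavy-chain constant gene, since each heavy-chain transcript holds 1 segment of each kind. Values per gene do not show which variable gene was joined to which constant gene. In replicate 1 of the libraries labelled knockout, Ighv9-3 at 471.05 FPKM stood beside Ighg2c, an IgG constant gene, at 466.10 FPKM, a ratio of 1.01. In aged control replicate 3, Ighv7-1 at 57799.1 FPKM stood beside Ighm, the IgM constant gene, at 56775.2 FPKM, a ratio of 1.02. In young control replicate 3, Ighv7-1 at 168.42 FPKM stood beside Ighm at 178.74 FPKM, a ratio of 0.942. In these 3 libraries 1 variable gene nearly equalled 1 constant gene. In the other 6 libraries the ratio was between 0.003 and 0.509.

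Summed over the 7 constant genes with a row, the ratio of variable to constant FPKM was 0.977, 0.004 and 0.079 in the libraries labelled knockout, 0.104, 0.364 and 0.951 in aged controls, and 0.268, 0.381 and 0.676 in young controls. Replicate 2 of the libraries labelled knockout was the lowest of all, with 150.14 FPKM of variable genes beside 34197 FPKM of constant genes, of which Ighm made up 24354 FPKM. The kappa light chain was also lowest there. Its 136 variable genes summed to 0.011 of the constant gene Igkc in that library, against 0.454 to 0.805 in the other 8 libraries. Variable genes without a row do not enter these sums, and their part in the ratios was not tested.

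**Figure D3:**
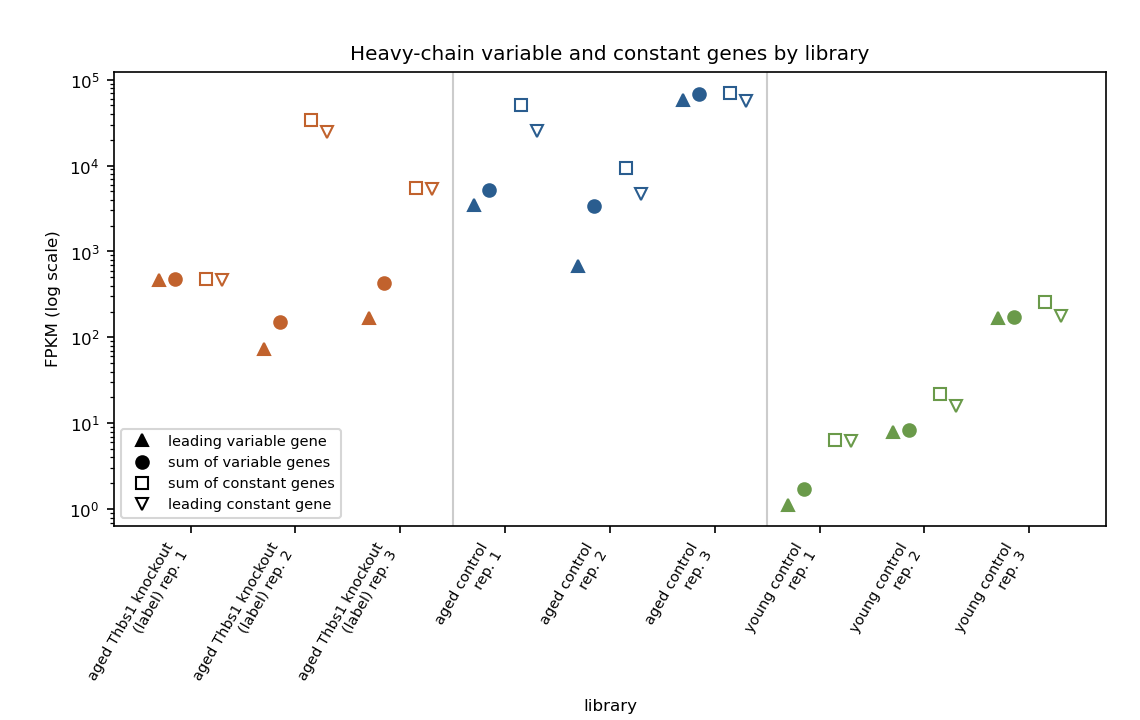
FPKM (log scale) of the leading heavy-chain variable gene, the sum of variable genes, the sum of constant genes and the leading constant gene in each library, from left to right. Variable and constant values nearly meet in replicate 1 of the libraries labelled knockout, aged control replicate 3 and young control replicate 3, and lie farthest apart in replicate 2 of the libraries labelled knockout (150.14 against 34197 FPKM).

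By V family, the members fell into 11 of the 15 families with a row. Ighv1, the largest mouse family, gave 25 of the 46 genes but seldom most of the FPKM of genes with a row. Ighv7, Ighv9 and Ighv10 have a row for all 4 of their annotated genes. Of the 92 annotated Ighv1 genes only 33 do, so the shares leave out most of this family. Its share was 0.023%, 1.94% and 28.9% in the libraries labelled knockout, 4.49%, 23.0% and 2.78% in aged controls, and 34.1%, 96.6% and 1.71% in young controls. The 96.6% of young control replicate 2 rests on 62 reads. Families Ighv12, Ighv13, Ighv15 and Ighv16 had no gene above 0.

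Among genes with a row, small families held most of the variable FPKM in the aged libraries. Ighv7, with 4 genes, had 0%, 35.2% and 38.6% in the libraries labelled knockout, 16.3%, 18.0% and 86.1% in aged controls, and 65.9%, 1.90% and 97.1% in young controls. Ighv9, also with 4 genes, had 99.98%, 5.63% and 2.75% in the libraries labelled knockout, 6.70%, 1.79% and 7.35% in aged controls, and 0% in young controls. Ighv10 had 0% in all libraries labelled knockout, 65.9%, 19.1% and 1.76% in aged controls, and 0%, 0% and 0.33% in young controls. Ighv9 was thus above 0 in all aged libraries and at 0 in all young ones, and Ighv10 was higher in every aged control than in any other library. The shares of Ighv1 and Ighv7 overlapped between all groups. The largest share of an unseen gene that a count of 0 allows was 0.0692% to 0.266% of reads in the libraries labelled knockout, but 25% and 4.84% in young control replicates 1 and 2.

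**Figure D4:**
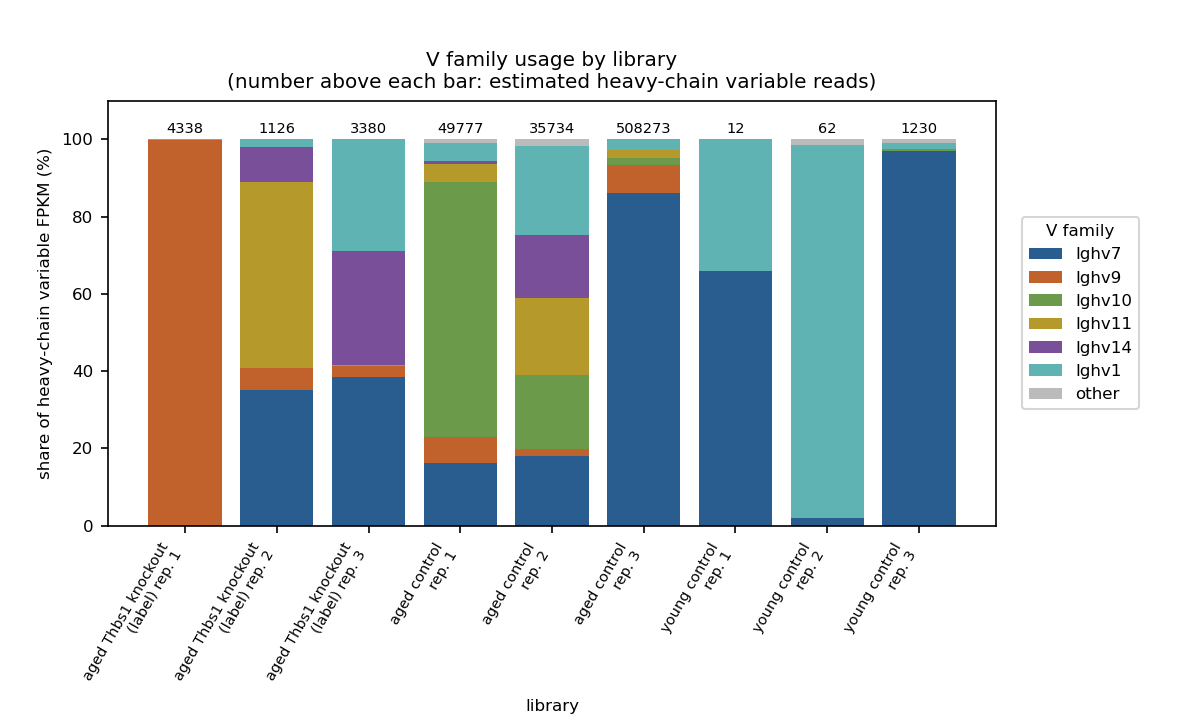
Share of heavy-chain variable FPKM (percent) by V family in each library, with the estimated number of variable-gene reads above each bar. The leading family differs between all replicates of both aged groups. It is Ighv9, Ighv11 and Ighv7 in the libraries labelled knockout, and Ighv10, Ighv1 and Ighv7 in aged controls. In young controls Ighv7 leads in replicates 1 and 3 and Ighv1 in replicate 2, with 12 reads in replicate 1 and 62 in replicate 2.

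Position along the locus was described by cutting the 76 rows into 3 stretches of 26, 25 and 25, from the diversity segments outwards, which held 16, 10 and 20 members. The stretch nearest the diversity segments held 99.98%, 98.1% and 71.1% of the variable FPKM in the libraries labelled knockout, 29.6%, 57.9% and 95.5% in aged controls, and 65.9%, 3.44% and 98.0% in young controls. The middle stretch, where Ighv10-1 lies, was at 0% in all libraries labelled knockout, and at 66.0%, 19.2% and 2.04% in aged controls. The far stretch, made up mainly of Ighv1 genes, had 0.023%, 1.94% and 28.9% in the libraries labelled knockout, and 4.40%, 22.9% and 2.50% in aged controls. The near and far shares thus overlapped between the groups of aged mice, and the middle share did not. Genes without a row do not enter these shares, and only 33 of 92 annotated Ighv1 genes have one.

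Usage was compared between libraries by the overlap, the sum over genes of the smaller of both shares, which is 100% for equal usage. Pairs of libraries labelled knockout overlapped by 0% to 37.5% (median 0.023% of 3 pairs), aged control pairs by 15.5% to 45.7% (median 19.0%), and young control pairs by 1.90% to 65.9% (median 1.90%). Between the libraries labelled knockout and aged controls the 9 pairs ranged from 1.79% to 39.3% (median 12.7%). The ranges within and between these groups overlapped. The highest of all 36 overlaps, 86.5%, was between aged control replicate 3 and young control replicate 3, both led by Ighv7-1. Replicates 1 and 3 of the libraries labelled knockout shared no gene. Pairs share libraries, so no test was made.

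Levels were then tested with limma across all 11988 genes that had at least 1 FPKM in at least 3 libraries, on log2(FPKM + 1), with Benjamini-Hochberg adjustment over all of them. Of the 46 members, 8 passed this minimum. Ighv1-64 and Ighv10-1 passed it through the aged controls alone. Ighv11-2, Ighv9-3, Ighv1-55, Ighv14-2 and Ighv1-78 also needed the aged controls to pass. Outside that group, Ighv11-2 reached 1 FPKM only in knockout-labelled replicate 2 and Ighv9-3 only in knockout-labelled replicate 1. Ighv1-55 did so only in young control replicate 2, and Ighv14-2 and Ighv1-78 only in knockout-labelled replicates 2 and 3. Passing and differing are thus linked for every tested member but Ighv7-1. The counts over these 8 genes are no support for a group difference. Over all tested genes the median difference was -0.28 for aged against young controls, 0.07 for libraries labelled knockout against aged controls and -0.16 for libraries labelled knockout against young controls. The comparisons share libraries, so their values are only set side by side.

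In the libraries labelled knockout against aged controls, 3 of the 8 tested members were lower and 0 higher, where 1.96% of all tested genes were lower and 1.52% higher. Ighv1-64 had a log2 difference of -7.03 (SE 0.30, limma adjusted p = 1.95e-05) and Ighv10-1 of -10.41 (SE 0.52, limma adjusted p = 3.60e-05). Both were at 0 in every library labelled knockout, so these sizes depend on the pseudocount and bound nothing. Ighv11-2 had a log2 difference of -6.84 (SE 1.36, limma adjusted p = 0.032). Its call was lost in 8 of the 9 fits without 1 library, with limma adjusted p from 0.0640 to 0.155. The exception was the fit without replicate 2 of the libraries labelled knockout, where limma gave an adjusted p of 0.000318. Ighv7-1, with a log2 difference of -6.62 (SE 2.65, limma adjusted p = 0.209), did not pass, and neither did Ighv9-3 (-5.90, SE 2.29, limma adjusted p = 0.196) or Ighv1-55 (-4.96, SE 1.74, limma adjusted p = 0.160). Of the 8 genes, 5 had all libraries labelled knockout below all aged controls, where 6.54% of all tested genes did.

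Ighv14-2 and Ighv1-78 leaned the other way without passing, with log2 differences of 0.62 (95% interval -4.75 to 5.99) and 1.26 (-2.76 to 5.28). The median over the 8 genes was -6.26, beside 0.07 over all genes. Without aged control replicates 1, 2 or 3 the minimum left 5, 4 and 5 members to test, of which 0, 0 and 1 were called. Those fits called 13, 31 and 374 of all tested genes, against 417 with all libraries. Without replicate 2 of the libraries labelled knockout, which stood apart, 3 of 6 tested members were lower, in a fit that called 1895 of all 11823 tested genes, 530 of them lower. In the fits without an aged control the genes at 0 outside the aged controls fell below the minimum.

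In aged against young controls, 3 of the 8 tested members were higher and 0 lower, where 2.57% of all tested genes were higher and 1.47% lower. Ighv1-64 had a log2 difference of 7.03 (SE 0.30, limma adjusted p = 1.95e-05), Ighv10-1 of 10.20 (SE 0.52, limma adjusted p = 4.36e-05) and Ighv11-2 of 9.22 (SE 1.36, limma adjusted p = 0.0129). Ighv1-64 and Ighv11-2 were at 0 in every young control, so their sizes also depend on the pseudocount. The call of Ighv11-2 was lost without aged control replicate 1 (limma adjusted p = 0.0797) and without young control replicates 1, 2 or 3 (limma adjusted p = 0.0754, 0.0658 and 0.0789). Ighv9-3 had a log2 difference of 8.86 (SE 2.29, limma adjusted p = 0.0643) and Ighv7-1 of 7.97 (SE 2.65, limma adjusted p = 0.126), and neither passed. Of the 8 genes, 5 had all aged controls above all young controls, where 7.02% of all tested genes did. Without aged control replicates 1, 2 or 3, 0 of 5, 1 of 4 and 2 of 5 tested members were called. Those fits called 4, 197 and 356 of all tested genes, against 484 with all libraries. The median over the 8 genes was 7.50, beside -0.28 over all genes.

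In the libraries labelled knockout against young controls, limma called 0 of the 8 members, and 0 of them had an unadjusted p under 0.05, where 0.025% of all tested genes were called. The log2 differences had wide intervals. That of Ighv7-1 was 1.35 (95% interval -4.62 to 7.31), that of Ighv11-2 was 2.38 (-0.68 to 5.44) and that of Ighv14-2 was 3.62 (-1.75 to 8.99). Differences of several log2 units in either direction were therefore not detectable for Ighv7-1 with these libraries.

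**Figure D5:**
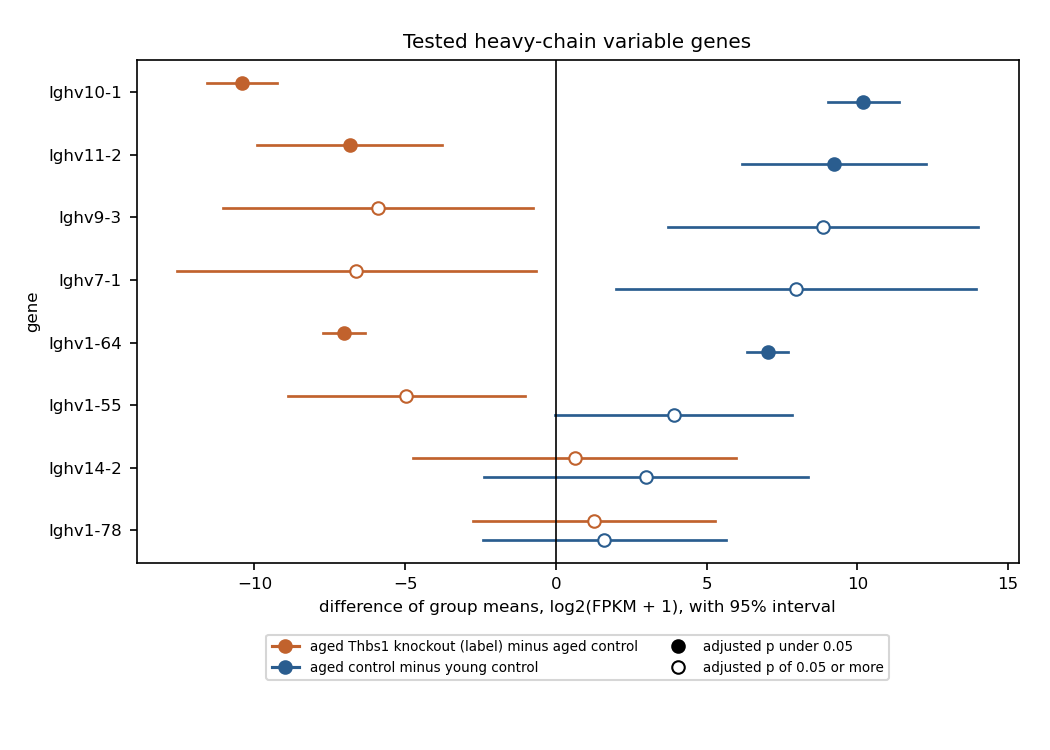
Difference of group means on the log2(FPKM + 1) scale with its 95% interval for the 8 heavy-chain variable genes tested, for libraries labelled aged Thbs1 knockout minus aged control and for aged control minus young control. Filled points (Ighv1-64, Ighv10-1 and Ighv11-2 in both comparisons) had an adjusted p under 0.05, and the interval of Ighv7-1 is the widest of the 8 in both comparisons.

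Other antibody genes were counted from set lists. In the libraries labelled knockout against aged controls, 1 of 6 tested heavy-chain constant genes was lower and 0 higher, and 0 of 4 light-chain constant genes were called. The gene that was lower was Ighe, the IgE constant gene, at 0 in all libraries labelled knockout and at 106.9, 8.40 and 10.18 FPKM in aged controls (log2 difference -4.49, SE 0.77, limma adjusted p = 0.0239). Ighe was also at 0 in all young controls, so it passed the minimum through the aged controls alone. For it passing and differing are linked in both comparisons with aged controls, and the sizes depend on the pseudocount. In aged against young controls, 2 of 6 heavy-chain constant genes (Ighg2c and Ighe) and 2 of 4 light-chain constant genes (Igkc and Iglc3) were higher and 0 lower. Pou2af1, a coactivator of octamer factors at immunoglobulin promoters, was higher in aged than in young controls (log2 difference 5.76, SE 1.14, limma adjusted p = 0.0310). Its level was 0.29, 47.24 and 10.42 FPKM in the libraries labelled knockout, 104.56, 21.15 and 131.56 FPKM in aged controls, and 0.32, 0.18 and 0.24 FPKM in young controls. Ighg2c and Pou2af1 also needed the aged controls to pass the minimum, so for them too passing and differing are linked.

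Markers of antibody-making cells were summed beside the variable genes. Summed over 13 plasma cell genes, the libraries labelled knockout had 435 to 1649 FPKM, aged controls 806 to 2381 FPKM and young controls 337 to 375 FPKM. In aged against young controls 5 of 12 tested plasma cell genes were higher and 0 lower, where 2.57% of all tested genes were higher. Of the genes called, Mzb1, Irf4, Derl3 and Slamf7 needed the aged controls to pass the minimum. For them passing and differing are linked in both comparisons with aged controls, so these counts are no support for a group difference. In the libraries labelled knockout against aged controls 1 of 12, Mzb1, a chaperone of antibody assembly, was lower (log2 difference -3.99, SE 0.62, limma adjusted p = 0.0190). Mzb1 was at 0.08, 0 and 1.03 FPKM in the libraries labelled knockout, 28.10, 5.64 and 44.77 FPKM in aged controls, and 0, 0.06 and 0 FPKM in young controls. Summed over 12 B cell genes the ranges were 40.3 to 641 FPKM in the libraries labelled knockout, 272 to 1861 FPKM in aged controls and 49.2 to 83.9 FPKM in young controls. In young controls most of this sum was Ebf1, at 47.39, 44.43 and 71.47 FPKM. Neither marker sum followed the order of the variable genes in every library. Replicate 2 of the libraries labelled knockout had 1649 FPKM of plasma cell genes and 641 FPKM of B cell genes beside 150.14 FPKM of variable genes, against 806, 272 and 3366.26 FPKM in aged control replicate 2.

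Pax5, the factor that fixes B cell identity, was at 0.02 FPKM or less in all 9 libraries. In aged against young controls 3 of 5 tested B cell genes were higher (Cd79a, Cd74 and Ms4a1) and 0 lower. Cd79b did not pass (log2 difference 4.57, limma adjusted p = 0.0535). Ebf1 leaned the other way without passing (log2 difference -1.16, SE 0.30, limma adjusted p = 0.0669). Cd79a and Ms4a1 needed the aged controls to pass the minimum, so for them passing and differing are linked. In the libraries labelled knockout against aged controls 0 of 5 were called. T cell markers summed to 1.07 FPKM or less in every library. The part of these cells in the level of the variable genes was not tested.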

How the data were processed

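The authors deposited FPKM per gene, rounded to 2 decimals, per the file headers and values. FastQC 0.11.5, STAR, edgeR and GRCm38 (mm10) appear in the submitters' processing notes, with no role given for any. No source used here names the annotation, the counter, or what was done with multi-mapping reads or rearranged V segments. Kits were SMART-Seq v4, per the labels' protocols. As FPKM is relative to the library total, abundant antibody genes lower the values of other genes.

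Sample titles gave the groups and the match of columns to samples. Members are rows with a symbol starting with Ighv and a digit and FPKM above 0 in at least 1 of 9 libraries. Members, lists and tests were chosen with earlier results of these data known. Positions, lengths and sequences came from GENCODE M21. Reads were estimated from the step between low FPKM values times gene length, searched between 8 and 60 M (mega). Of low values, 97.4% to 100% were whole reads within 0.1, against 57.5% to 64.0% at 0.5 times that depth. Intervals (Wilson, 95%) and the 3-read floors cover counting error only. Usage share is a gene's FPKM over the Ighv sum of its library.

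Levels were tested as log2(FPKM + 1) by limma 3.58.1 (R 4.3.3), with a trend of variance on intensity, for genes of at least 1 FPKM in at least 3 libraries. All 9 libraries were in 1 fit (6 residual degrees of freedom), and p was adjusted over all 11988 genes at a threshold of 0.05. Differences on this scale understate the change of low genes. The procedure was tested on simulated data. Totals, breadth, shares and overlaps have no test. Named members were the 3 highest in each aged library, the highest in each young library, the 5 highest by mean, those with the smallest p, and the 3 just inside the rule (Ighv8-9, tied with them, was added). Alternatives were other pseudocounts, minima, scalings and variance models, read-based detection, a replicate block, and leaving out single libraries. Shares and figures were computed in Python 3.11.15 with pandas 2.3.3, numpy 2.4.6, scipy 1.17.1 and matplotlib 3.10.9.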

Additional observations from a re-analysis of the deposited data

How the results depend on the processing

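The number of members called was 3 in the libraries labelled knockout against aged controls, 3 in aged against young controls and 0 in the libraries labelled knockout against young controls. With array weights it was 7 (2 higher and 5 lower), 6 and 2, when limma also called 6347, 7419 and 1414 of all tested genes. Over the fits without 1 library it ranged from 0 to 3, from 0 to 4 and from 0 to 0. With the minimum asked of 2 libraries, an alternative chosen after seeing the data, these ranges were 2 to 4, 2 to 5 and 0 to 0. Under the other pseudocount, minima and scalings the counts were within 1.5 times. The cause of the change with array weights was not tested. With fewer aged controls the minimum itself removed members.

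The replicate number as a block gave 2, 4 and 0 members called and 64, 120 and 2 of all tested genes, against 417, 484 and 3 without it. Same-numbered libraries had correlations of deviations of -0.288 to 0.302, and some libraries correlated best with another number. No pairing by number was seen, but with 3 libraries per group this check cannot exclude one. Other scalings moved the balance of all calls. In the libraries labelled knockout against aged controls it was 182 higher and 235 lower, and 130 higher and 406 lower with immunoglobulin genes taken out of the total. In aged against young controls it was 308 higher and 176 lower, and 412 higher and 67 lower with immunoglobulin genes taken out of the total. The members called kept their direction under all scalings run. The call of Ighv11-2 in the libraries labelled knockout against aged controls was lost with a pseudocount of 0.1 (limma adjusted p = 0.0581), without a minimum (0.0875), with the block (0.0631) and with only both compared groups in the fit (0.138).

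Mean genes per library were 6, 28 and 4 in the libraries labelled knockout, in aged controls and in young controls. Requiring 1 FPKM gave 3.67, 17.7 and 1.67. Requiring 3 reads gave 22.3 in aged controls, and 500 reads per library gave 12.7 there. The effective number in young controls was 1.46, and 2.59 with the leading gene left out. Depth limits young control replicates 1 and 2, with 12 and 62 reads on the locus, and their shares carry little weight.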

Other observations

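Joining segments, which follow the variable segment in the rearranged exon, have 4 genes with a row. They summed to 1.53, 24.34 and 24.23 FPKM in the libraries labelled knockout, to 222.88, 49.00 and 492.12 FPKM in aged controls, and to 0, 0 and 1.93 FPKM in young controls. These sums were below those of the variable genes in every library, as in aged control replicate 3 with 492.12 against 67132.6 FPKM. Reads on single joining genes were not estimated, so the values do not show which joining segment was used. In aged control replicate 3, Ighj1 had 396.75 of the 492.12 FPKM. In replicate 1 of the libraries labelled knockout, where Ighv9-3 made up 99.9% of the variable FPKM, Ighj2 was the 1 joining gene above 0, at 1.53 FPKM. These genes, like Ighv1-62-2 and Ighv1-71, were named after their values were seen.

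Annotated pseudogenes of the heavy-chain variable locus summed to 0 FPKM in all libraries labelled knockout and all young controls, and to 1.58, 0.52 and 59.05 FPKM in aged controls. In aged control replicate 3, where Ighv7-1 had 57799.1 FPKM, the other 3 genes of its family were at 0.81 FPKM (Ighv7-2), 0.53 FPKM (Ighv7-3) and 0.22 FPKM (Ighv7-4). In replicates 1 and 2 of the aged controls Ighv7-3 was at 431.86 and 343.61 FPKM.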
